A study of Homo sapiens with 12 samples.

Results

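The snoRNA host noncoding RNAs GAS5, ZFAS1, SNHG1, SNHG5, SNHG6, SNHG7, SNHG8, SNHG12, SNHG15 and SNHG16 were followed in 2 squamous carcinoma cell lines of the head and neck, SCC15 and SCC25. They were matched by gene name in the table of each cell line, and all 10 were found among the 29657 genes listed for SCC15 and the 31055 listed for SCC25. RNA was sequenced after 24 h with ACGs (annonaceous acetogenins, given in the study's methods as 10 µg/mL of squamocin) or with DMSO, the solvent control, in 3 libraries for each treatment and cell line, 12 in all. All libraries were labelled as wild type in genotype and as oral squamous cells. No label says that the 3 libraries of a group came from separate cultures, so p-values measure the spread between these libraries, which may be technical.

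Small nucleolar RNAs (snoRNAs) guide the chemical modification of ribosomal RNA. Box C/D snoRNAs direct 2′-O-methylation and box H/ACA snoRNAs direct pseudouridylation. In human cells most of them are cut out of the introns of host genes, and in the genes described here the spliced exons that remain encode no known conserved protein. Many host transcripts begin with a C followed by a run of pyrimidines, as the 5′ terminal oligopyrimidine (5′TOP) mRNAs of the translation machinery do. Several of the spliced host RNAs, GAS5 among them, are known to meet ribosomes and to be removed by nonsense-mediated decay (NMD), a pathway that needs translation. GAS5 was named for its accumulation in growth-arrested cells.

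The members lay on 9 chromosomes, 7 of them on the minus strand, with spans of 1115 to 17799 bp in the deposited tables (GRCh38). RefSeq placed 37 snoRNA genes inside these spans. GAS5 (ENSG00000234741, chr1:173863900-173868882) held 11 of them, SNHG1 (ENSG00000255717, chr11:62851988-62855914) held 9 and SNHG12 (ENSG00000197989, chr1:28578538-28583132) held 4. ZFAS1 (ENSG00000177410, chr20:49278178-49295738) and SNHG16 (ENSG00000163597, chr17:76557766-76565348) held 3 each, and SNHG5 (ENSG00000203875, chr6:85660950-85678748) and SNHG7 (ENSG00000233016, chr9:136721366-136728184) held 2 each. SNHG6 (ENSG00000245910), SNHG8 (ENSG00000269893, chr4:118278709-118279823) and SNHG15 (ENSG00000232956, chr7:44983023-44986961) held 1 each. The tables give GAS5, SNHG1, SNHG5, SNHG6 and SNHG16 the biotype processed transcript, ZFAS1, SNHG7 and SNHG12 antisense, and SNHG8 and SNHG15 lincRNA.

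A start of the 5′TOP kind was looked for in the RefSeq start sequences of the members (GRCh38.p14), of which 8 were used. SNHG15 had no entry, and SNHG6 was left out of the search. A C at the start was present in 6 of the 8, against 14.7% of all 35116 RefSeq starts. A start C followed by at least 4 further C or T was present in 3 of the 8, SNHG12, ZFAS1 and SNHG5, against 4.07% of all starts. The starts of these 3 are shown with those of SNHG1 and SNHG7, whose tracts were shorter, and with that of SNHG16, which had none. GAS5 had none at the RefSeq start searched, and SNHG8 had only the start C, and their starts are not shown. That GAS5 start lay 163 bp upstream of the deposited span. From 250 bases before to 50 after it, G and C made up 37.7%, the lowest share among the 8. No other start of GAS5 was searched, so the search cannot decide whether GAS5 has a start of the 5′TOP kind. Each line gives 10 bases before the start and 40 from it on, 5′ to 3′, with the unbroken run of C and T that opens with the start C in capitals.
SNHG12: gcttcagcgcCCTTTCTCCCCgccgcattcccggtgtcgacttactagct
ZFAS1: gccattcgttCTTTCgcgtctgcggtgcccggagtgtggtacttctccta
SNHG5: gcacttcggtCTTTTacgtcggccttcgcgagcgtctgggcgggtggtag
SNHG7: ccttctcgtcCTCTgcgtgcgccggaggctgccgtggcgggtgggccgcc
SNHG1: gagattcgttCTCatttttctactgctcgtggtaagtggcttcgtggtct
SNHG16: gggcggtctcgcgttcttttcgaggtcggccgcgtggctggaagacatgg
The sequence of SNHG12 came from chr1:28581834-28581883 on the minus strand, that of ZFAS1 from chr20:49278632-49278681 on the plus strand and that of SNHG5 from chr6:85678694-85678743 on the minus strand. Those of SNHG7 and SNHG1 came from chr9:136728145-136728194 and chr11:62855846-62855895, both on the minus strand, and that of SNHG16 from chr17:76557754-76557803 on the plus strand. The RefSeq start lay 0 to 1259 bp from the outer end of the deposited span, farthest for SNHG12, so the start used in these cells is not given by the tables. In the window from 250 bases before to 50 after the start, the E-box CACGTG (its own reverse complement) was found in 1 of the 8 members, SNHG7, and in 7.26% of all starts. The motif TGATGNAA, searched on both strands, was found in 0 of the 8 and in 3.62% of all starts.

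The libraries held 16665563 to 22748845 reads on genes. A normalized count is a gene's read count over the size factor of its library, as deposited. The treatments were tested within each cell line by limma, on normalized counts to which 1 was added before taking log2. The 15902 (SCC15) and 16539 (SCC25) genes with a mean of at least 10 were fitted, p was adjusted over them by the Benjamini-Hochberg method, and an adjusted p under 0.05 was called. All 10 members passed the filter in both cell lines. Squamocin library 3 of SCC15 stood apart from the other 2 of its group. The chi-square per degree of freedom between its reads and theirs was 64.1 and 56.8, against 1.67 to 9.95 in the other pairs of replicates, and its normalized counts summed to 24626253 against 20467856 and 20826159. For the members, values for SCC15 are therefore also given without it, singly or as a range over all 10. Values of other genes are not. With every library of a cell line scaled to the same total, the median log2 fold change of all genes moved from 0.012 to −0.48 in SCC15 and from −0.015 to −0.22 in SCC25, and the members are also described on that scale.

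The labelled cell type was only partly matched by its markers. In SCC25 all 12 markers of squamous epithelium were tested, and their sum was 43551.0 to 44069.3 normalized counts with DMSO and 91753.9 to 97558.5 with squamocin (9 higher, 2 lower). In SCC15 KRT17, a keratin of stratified epithelium, made up most of a sum of 120271.7 to 126624.6 with DMSO and 226709.6 to 386098.9 with squamocin (5 of 10 tested higher, 0 lower), while KRT5, TP63, EPCAM and DSG3 had means between 1.44 and 17.5 with DMSO. For 7 fibroblast markers the SCC15 sums went from 721.1 to 795.3 (DMSO) to 486.5 to 490.1 (squamocin), and the SCC25 sums from 774.5 to 814.0 to 1075.3 to 1227.9. The sums of 6 leukocyte markers were 499.1 to 541.2 and 319.9 to 506.4 in SCC15, and 335.5 to 427.3 and 19.1 to 32.2 in SCC25. CD14 made up most of these sums except with squamocin in SCC25, where its mean was 4.81 beside 18.5 for CD3E. PTPRC, which defines leukocytes, was at most 3.95 in SCC15 and was not listed in SCC25. Sums of 5 endothelial markers were 157.8 to 179.5 and 68.4 to 77.5 in SCC15, and 240.2 to 304.0 and 19.8 to 41.1 in SCC25. PECAM1 made up most of the SCC15 sums, with means of 165.8 with DMSO and 72.0 with squamocin. In SCC25 the means of CDH5 and PECAM1 were 166.0 and 75.3 with DMSO, and 13.2 and 2.38 with squamocin. KDR was not listed in SCC15 and was at most 1.80 in SCC25. The part of these movements in the results on the host RNAs was not tested.

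In SCC15 cells all 10 host RNAs were higher with squamocin, by 2.26-fold for SNHG16 to 7.30-fold for SNHG15, and the 3 squamocin libraries lay above the 3 DMSO libraries for each of them. Of all genes tested in SCC15, 30.9% were higher, 30.0% were lower and 35.7% had all squamocin libraries above all DMSO libraries. In SCC25 cells 9 of the 10 were higher, by 1.30-fold for SNHG1 to 2.96-fold for SNHG6, 0 were lower, and SNHG16 did not pass the test. In that cell line 38.3% of all genes were higher, 38.5% were lower and 39.4% had all squamocin libraries above all DMSO libraries. Higher levels in both cell lines were thus called for 9 of the 10 members and for 22.1% of the 14454 genes tested in both. The median log2 fold change over the members was 1.92 in SCC15 and 0.89 in SCC25, beside 0.012 and −0.015 over all genes tested. In these bulk samples, a change in the level per cell and a change in the share of cells that make the RNA cannot be told apart.

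**Figure D1:**
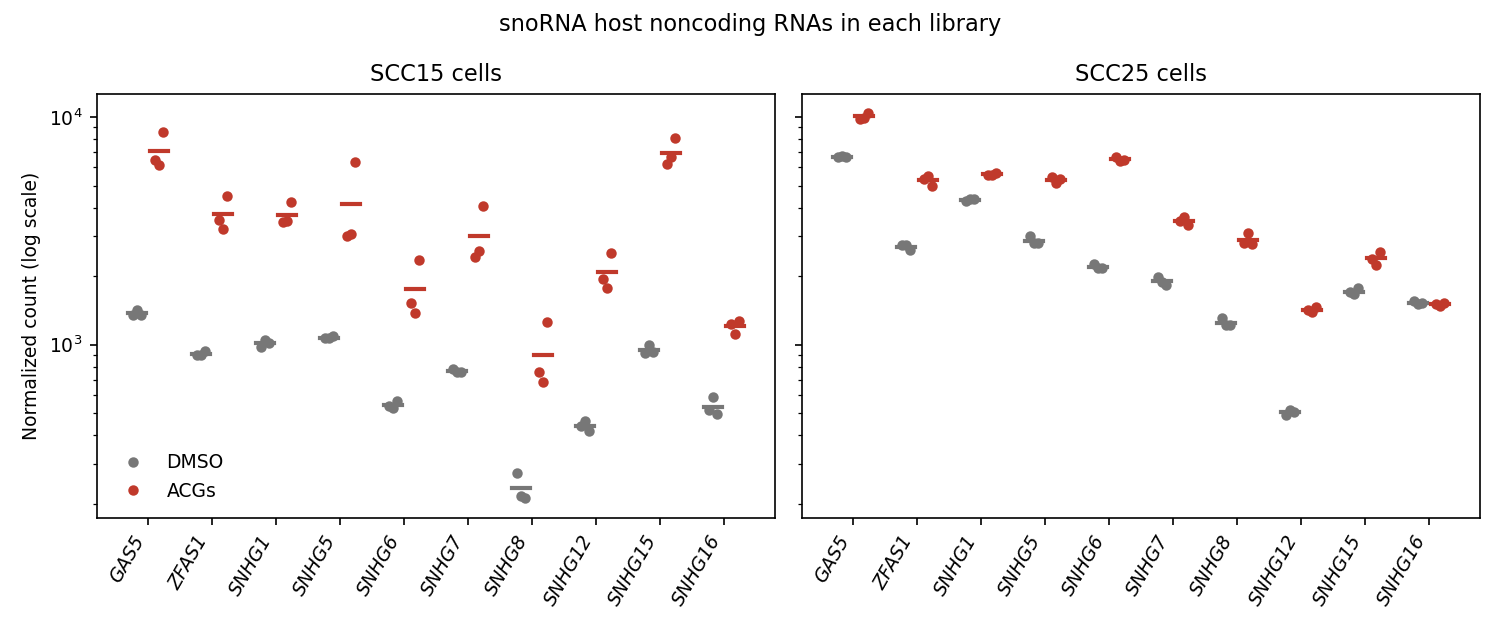
Normalized counts of the 10 snoRNA host noncoding RNAs (y axis, log scale) in each of the 3 DMSO libraries (grey) and the 3 squamocin libraries (ACGs, red) of SCC15 cells (left) and SCC25 cells (right), with a bar at each mean. The treatments overlap only for SNHG16 in SCC25, and the highest squamocin point in SCC15 is library 3 for all 10.

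GAS5 mainly hosts box C/D snoRNAs and was the member with the highest normalized count in SCC25. In SCC15 it held 6469.5, 6138.3 and 8585.3 normalized counts with squamocin and 1352.2, 1420.8 and 1350.5 with DMSO. Every squamocin library was more than 4 times as high as any DMSO library, and the log2 fold change was 2.35 (SE 0.13, adjusted p = 2.1e-05, limma). In SCC25 the values were 9837.6, 9947.6 and 10434.7 with squamocin and 6685.1, 6763.4 and 6650.3 with DMSO. The treatments did not overlap, and the rise was smaller, at 0.59 on the log2 scale (SE 0.038, adjusted p = 1.78e-08, limma). Thus the DMSO level of GAS5 in SCC25 was close to its squamocin level in SCC15 on the scale of each table.

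ZFAS1, which starts next to ZNFX1 on the other strand and hosts the SNORD12 family, held 3529.8, 3213.3 and 4504.2 normalized counts with squamocin in SCC15 and 901.7, 896.6 and 937.6 with DMSO. The DMSO libraries differed little and all squamocin libraries were higher (log2 fold change 2.02, SE 0.13, adjusted p = 3.17e-05, limma). In SCC25 it held 5345.8, 5477.1 and 4955.9 with squamocin and 2740.9, 2740.8 and 2595.3 with DMSO. The groups did not overlap there either (0.97, SE 0.047, adjusted p = 1.45e-09, limma).

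SNHG1, the host of SNORD22 and of SNORD25 to SNORD31, held 3440.5, 3474.4 and 4213.0 normalized counts with squamocin in SCC15 and 976.8, 1046.0 and 1014.4 with DMSO. All squamocin libraries were higher, by 1.87 on the log2 scale (SE 0.10, adjusted p = 1.93e-05, limma). In SCC25 the values were 5559.4, 5573.8 and 5700.9 with squamocin and 4275.4, 4341.0 and 4359.5 with DMSO. This was the smallest of the called rises in SCC25 (0.38, SE 0.037, adjusted p = 1.06e-06, limma), with no overlap between the groups.

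SNHG5 hosts SNORD50A and SNORD50B, and it was the member on which squamocin library 3 of SCC15 weighed most. Its normalized counts in SCC15 were 3001.2, 3073.1 and 6355.6 with squamocin and 1067.2, 1065.8 and 1089.5 with DMSO. Library 3 was 2.09 times the mean of the other squamocin libraries, and the log2 fold change was 1.85 with it (SE 0.27, adjusted p = 0.000933, limma) and 1.50 without it. In SCC25 the values were 5464.1, 5107.9 and 5334.5 with squamocin and 3003.7, 2783.1 and 2788.3 with DMSO. The squamocin libraries lay close together and above all DMSO libraries (0.89, SE 0.046, adjusted p = 2.1e-09, limma).

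SNHG6, the host of SNORD87, had the largest rise in SCC25. It held 6661.3, 6435.9 and 6502.4 normalized counts there with squamocin and 2263.8, 2177.7 and 2168.7 with DMSO, without overlap (log2 fold change 1.57, SE 0.040, adjusted p = 4.45e-12, limma). In SCC15 the values were 1517.4, 1381.5 and 2351.6 with squamocin and 536.6, 524.2 and 563.1 with DMSO. The rise there was 1.65 (SE 0.19, adjusted p = 0.000327, limma), or 1.42 without squamocin library 3.

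SNHG16 hosts SNORD1A, SNORD1B and SNORD1C and was the member with the smallest rise in SCC15. It held 1231.1, 1117.1 and 1269.1 normalized counts there with squamocin and 516.1, 589.8 and 496.7 with DMSO (log2 fold change 1.17, SE 0.10, adjusted p = 0.000101, limma). In SCC25 it held 1506.1, 1483.9 and 1529.9 with squamocin and 1547.4, 1514.8 and 1530.5 with DMSO. The groups overlapped, and the log2 fold change was −0.023 with a 95% interval of −0.12 to 0.075 (adjusted p = 0.653, limma). With equal library totals the value was −0.23 and passed the threshold as lower (adjusted p = 0.00049, limma), as did 47.4% of all genes in SCC25, whose median on that scale was −0.22.

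The hosts of box H/ACA snoRNAs came next. SNHG7, the host of SNORA17A and SNORA17B, held 2418.1, 2573.8 and 4047.5 normalized counts with squamocin in SCC15 and 781.4, 760.6 and 757.7 with DMSO. All squamocin libraries were higher, library 3 most (log2 fold change 1.93, SE 0.19, adjusted p = 0.000155, limma, and 1.70 without that library). In SCC25 it held 3494.0, 3628.2 and 3363.9 with squamocin and 1981.8, 1885.4 and 1829.7 with DMSO. The rise was 0.88 (SE 0.048, adjusted p = 3.52e-09, limma), and the groups did not overlap.

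SNHG8, the host of SNORA24, had the lowest normalized counts among the members in SCC15. They were 758.1, 686.2 and 1254.2 with squamocin and 273.0, 216.6 and 211.3 with DMSO. The log2 fold change was 1.90 (SE 0.23, adjusted p = 0.000413, limma), and 1.63 without squamocin library 3. In SCC25 the values were 2805.1, 3099.9 and 2757.7 with squamocin and 1308.8, 1217.0 and 1224.2 with DMSO. All squamocin libraries were higher, by 1.21 on the log2 scale (SE 0.055, adjusted p = 7.84e-10, limma).

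SNHG15, the host of SNORA9, had the largest rise in SCC15. Its normalized counts were 6205.2, 6638.7 and 8060.2 with squamocin and 921.3, 998.6 and 927.1 with DMSO. The squamocin libraries were more than 6 times as high as any DMSO library, and the log2 fold change was 2.87 (SE 0.11, adjusted p = 7.21e-06, limma). In SCC25 it held 2378.1, 2243.0 and 2550.1 with squamocin and 1696.5, 1660.5 and 1771.2 with DMSO. The groups did not overlap, and the rise was among the smallest of the called ones in SCC25 (0.48, SE 0.054, adjusted p = 3.57e-06, limma).

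SNHG12 holds both kinds of snoRNA, the box C/D SNORD99 and 3 of the box H/ACA kind. It held 1946.3, 1770.2 and 2514.6 normalized counts with squamocin in SCC15 and 436.8, 460.9 and 416.4 with DMSO (log2 fold change 2.23, SE 0.14, adjusted p = 2.72e-05, limma). In SCC25 it held 1414.6, 1385.1 and 1469.9 with squamocin and 489.2, 517.2 and 507.2 with DMSO (1.49, SE 0.055, adjusted p = 1.25e-10, limma). It was the member with the lowest DMSO level in SCC25 and had the second largest rise there.

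Among all genes tested in SCC15, ordered from the largest log2 fold change down, the members ranked from 171 (SNHG15) to 1542 (SNHG16) of 15902. In SCC25 they ranked from 1023 (SNHG6) to 8322 (SNHG16) of 16539, with GAS5 at 4275, SNHG15 at 4892 and SNHG1 at 5545. A called rise above 1 on the log2 scale was found for all 10 members in SCC15, beside 12.6% of all genes, and in SCC25 for SNHG6, SNHG8 and SNHG12, beside 13.9% of all genes. With equal library totals all 10 remained higher in SCC15, where 14.8% of all genes were then higher and 50.5% lower, and the member median was 1.42 beside −0.48 for all genes. In SCC25 the same 9 were higher, beside 30.4% of all genes higher and 47.4% lower, and the median was 0.68 beside −0.22. Rises that moved by over 1.5 times on that scale went in SCC25 to 0.17 for SNHG1, 0.27 for SNHG15 and 0.38 for GAS5, and in SCC15 to 0.68 for SNHG16. Without squamocin library 3 all 10 were still called higher in SCC15, with log2 fold changes from 1.14 (SNHG16) to 2.76 (SNHG15).

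The responses of the cell lines were compared member by member with a limma contrast over the 12 libraries, adjusted over the 14454 genes tested in both. The rise was smaller in SCC25 for 9 members and larger for 0, and SNHG6 did not pass the test. Of all genes, 26.1% had a response that was lower in SCC25 than in SCC15 and 26.0% a higher one. The difference (SCC25 minus SCC15, log2) was −2.38 for SNHG15 (SE 0.13, adjusted p = 4.49e-08, limma), −1.76 for GAS5 (SE 0.15, adjusted p = 9.83e-07, limma) and −1.49 for SNHG1 (SE 0.11, adjusted p = 3.92e-07, limma). It was −1.20 for SNHG16, −1.06 for ZFAS1, −1.05 for SNHG7, −0.96 for SNHG5 and −0.73 for SNHG12, with adjusted p from 2.03e-06 to 0.0149 (limma). SNHG8 passed narrowly (−0.69, SE 0.25, adjusted p = 0.0344, limma), and it no longer passed with equal library totals (−0.40, adjusted p = 0.109, limma). For SNHG6 the difference was −0.084 with a 95% interval of −0.53 to 0.36 (adjusted p = 0.753, limma), so a difference of either sign within that interval was not excluded. Without squamocin library 3 of SCC15 it was 0.15, and the differences of SNHG5 and SNHG8 were −0.61 and −0.43 and still passed. With equal library totals the difference of SNHG12 was −0.44 and still passed.

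**Figure D2:**
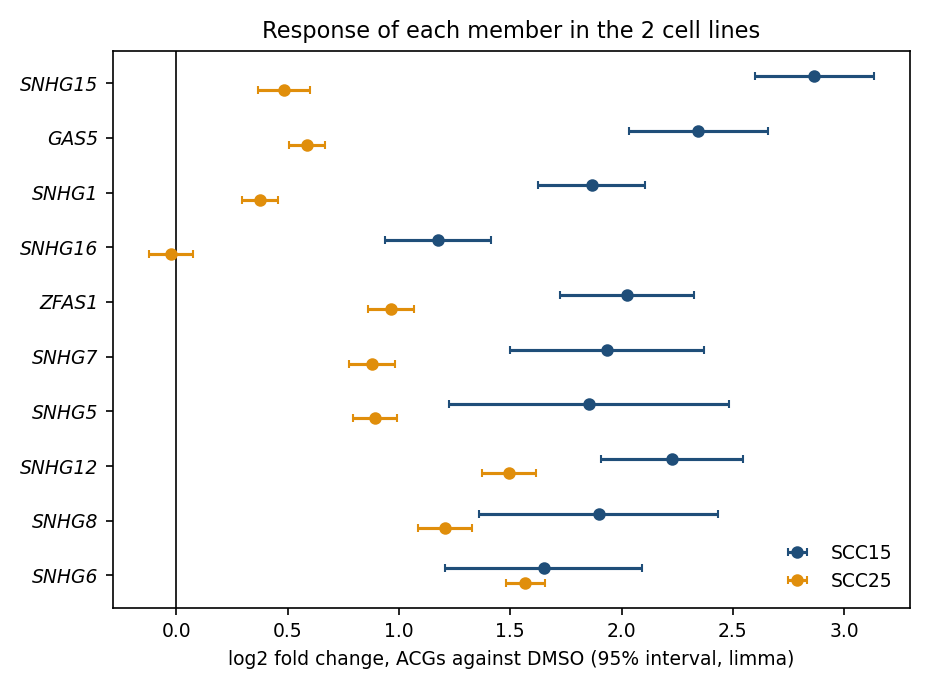
Log2 fold change of each member, squamocin (ACGs) against DMSO (x axis), in SCC15 (blue) and SCC25 (orange), with the 95% interval from limma on 3 against 3 libraries and the members ordered by the size of the difference between the cell lines. The points are farthest apart for SNHG15 (2.87 and 0.48) and nearest for SNHG6 (1.65 and 1.57), and only the SCC25 interval of SNHG16 spans 0.

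Since each table was scaled on its own, levels were set side by side between the cell lines as RPM (reads scaled to the same total of reads on genes in every library), as a description. With DMSO the 10 members together took 505.4 ± 7.23 RPM in SCC15 and 1404.1 ± 12.4 in SCC25 (SD, n = 3). With squamocin they took 1562.4 ± 166.3 and 2106.2 ± 23.3 (SD, n = 3). The DMSO level was higher in SCC25 than in SCC15 for 9 members, from 1.53 times for SNHG15 to 4.54 times for SNHG8 and 4.13 times for GAS5, and the ratio was 0.98 for SNHG12. With squamocin the ratio of SCC25 to SCC15 was 3.93 for SNHG6 and 3.39 for SNHG8. It lay between 1.22 and 1.58 for 6 others, and was 0.72 for SNHG12 and 0.36 for SNHG15. In SCC15 SNHG15, for example, went from 61.2 ± 2.67 RPM with DMSO to 316.4 ± 12.2 with squamocin, and in SCC25 from 93.5 ± 3.22 to 113.2 ± 8.26 RPM (SD, n = 3). Its order between the cell lines was thus opposite in the DMSO and the squamocin libraries.

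**Figure D3:**
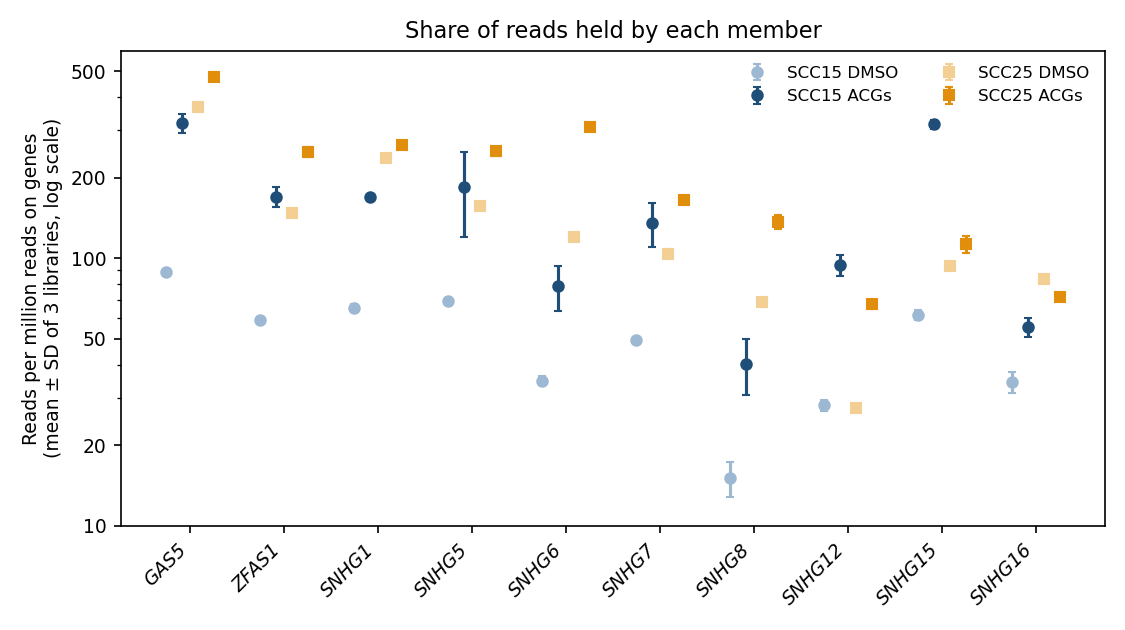
RPM (share of the reads on genes) held by each member (y axis, log scale) in the 4 groups, SCC15 (circles) and SCC25 (squares) with DMSO (pale) or squamocin (ACGs, dark), as mean ± SD of 3 libraries. With DMSO the SCC25 squares lie above the SCC15 circles for all members but SNHG12, and with squamocin the SCC15 circle lies above the SCC25 square for SNHG12 and SNHG15.

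Levels were compared between members per kilobase of exon, using all exons of the GENCODE release 44 annotation that lie inside the deposited span (RPM per kilobase). Retained-intron isoforms lengthen these exons, so the order depends on the annotation. In SCC15 with DMSO the order was SNHG6 (24.9 ± 0.97), GAS5 (21.6 ± 0.59), SNHG1 (16.6 ± 0.56) and SNHG15 (15.5 ± 0.68, SD, n = 3), and SNHG1 and SNHG15 overlapped. At the low end SNHG12 (6.62), SNHG5 (6.61) and SNHG16 (6.35) overlapped with their neighbours. With squamocin SNHG15 (80.3 ± 3.11) and GAS5 (78.1 ± 6.63) led in SCC15 and overlapped with each other, while SNHG16 (10.2 ± 0.83, SD, n = 3) was lowest. In SCC25 GAS5 (89.5 ± 0.78) and SNHG6 (85.8 ± 1.84) led with DMSO and did not overlap. With squamocin SNHG6 (220.3 ± 4.32) led, and SNHG8 (122.6 ± 7.07) and GAS5 (116.5 ± 4.64, SD, n = 3) followed and overlapped with each other.

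Of the 37 snoRNA genes inside the members, 4 were listed in each table, and 3 reached a mean of 10 in a cell line, SNORD99 inside SNHG12 and SNORD12B and SNORD12C inside ZFAS1. Their sequences are shown because their reads can be set beside those of their hosts. They are read from GRCh38, 5′ to 3′ on the strand of the host, with the box C letters TGATGA (where present) and the box D letters CTGA nearest the 3′ end in capitals.
SNORD99: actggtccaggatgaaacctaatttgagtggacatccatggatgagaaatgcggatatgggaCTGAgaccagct
SNORD12B: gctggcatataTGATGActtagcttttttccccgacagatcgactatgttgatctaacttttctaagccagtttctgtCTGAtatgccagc
SNORD12C: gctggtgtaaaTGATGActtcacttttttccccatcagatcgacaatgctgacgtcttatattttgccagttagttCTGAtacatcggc
SNORD99 lies at chr1:28578749-28578822 on the minus strand, and 0 of the 19 annotated transcripts of SNHG12 in GENCODE release 44 have an exon over it. SNORD12B (chr20:49280319-49280409, plus strand) is covered by an exon in 1 of 14 transcripts of ZFAS1, and SNORD12C (chr20:49278940-49279028, plus strand) in 0 of 14.

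SNORD99 was higher with squamocin in both cell lines, as its host was. Its DMSO means of 4.22 in SCC15 and 5.67 in SCC25 lay under the filter of 10, so it was tested only because of its squamocin libraries and had to differ. In SCC15 it held 53.3, 55.9 and 109.5 normalized counts with squamocin and 4.27, 3.16 and 5.24 with DMSO. All squamocin libraries were more than 10 times as high as any DMSO library, although the gene held only 4 to 88 reads in a library (log2 fold change 3.76, SE 0.36, adjusted p = 0.000155, limma). In SCC25 it held 95.3, 82.2 and 76.6 with squamocin and 8.06, 5.40 and 3.54 with DMSO, again without overlap (3.74, SE 0.31, adjusted p = 1.83e-07, limma). For the snoRNAs of ZFAS1 the difference between the cell lines was not tested. SNORD12B rose in SCC15 (1.65, SE 0.46, adjusted p = 0.0159, limma), from 15.0 to 19.6 normalized counts with DMSO to 24.9 to 88.1 with squamocin. SNORD12C rose by 1.14 (SE 0.40, adjusted p = 0.039, limma), or 0.67 with equal library totals. Squamocin library 3 of SCC15 was the highest of its group for ZFAS1 but the lowest for both snoRNAs (24.9 and 16.2). In SCC25 neither passed the test, with log2 fold changes of 0.027 (adjusted p = 0.933) and −0.73 (adjusted p = 0.103, limma), while ZFAS1 itself was higher. Reads over a snoRNA can come from the snoRNA, from an unspliced host or from another isoform, and these counts do not tell them apart.

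Some members share their start region or part of their span with a gene on the other strand. The strand setting of the counting is not given in the sources used here, so reads in a shared stretch cannot be assigned. SLC3A2, which encodes the heavy chain of the LAT1 amino acid transporter, starts 188 bp from SNHG1 on the other strand without overlap. It held 19838.6, 19884.1 and 25324.1 normalized counts with squamocin in SCC15 and 5994.7, 5415.9 and 5564.3 with DMSO, a rise of 1.93 (SE 0.13, adjusted p = 3.33e-05, limma) beside 1.87 for SNHG1. In SCC25 SLC3A2 rose by 1.60 (SE 0.052, adjusted p = 4.25e-11, limma) and SNHG1 by 0.38. ZNFX1, which encodes a zinc finger helicase and overlaps ZFAS1 by 249 bp at their starts, moved the opposite way. It held 3774.4, 3902.9 and 2728.6 with squamocin and 11757.4, 11673.0 and 11444.6 with DMSO in SCC15 (−1.76, SE 0.14, adjusted p = 7.94e-05, limma), and it fell by 1.27 in SCC25 (SE 0.060, adjusted p = 9.78e-10, limma). ZFAS1 rose in both.

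ZBTB37, which encodes a zinc finger protein, overlaps GAS5 by 801 bp at their starts. Its log2 fold change was −0.71 in SCC15 (SE 0.24, adjusted p = 0.0358, limma) and 0.52 in SCC25 (SE 0.096, adjusted p = 0.000318, limma), or −1.21 and 0.31 with equal library totals, while GAS5 rose in both. TRNAU1AP overlaps the end of SNHG12 by 8 bp, and its log2 fold change in SCC15 was 0.073 (adjusted p = 0.694) and −0.35 in SCC25 (adjusted p = 0.00347, limma). GAS5-AS1 (over GAS5), MCMDC2 (over SNHG6) and FAM69B (over SNHG7) had means of 7.33 to 21.2 normalized counts, and none of these 3 was called higher. In SCC25 all 3 were lower, opposite to the members they overlap, where 38.5% of all genes were lower. The falls were 1.08 for GAS5-AS1 (adjusted p = 0.0132), 1.71 for MCMDC2 (adjusted p = 0.00132) and 3.19 for FAM69B (adjusted p = 0.000436, limma). The SCC25 squamocin means of MCMDC2 (8.8) and FAM69B (2.4) lay under the filter on the mean. Both were thus tested there only because of their DMSO libraries and had to differ.

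**Figure D4:**
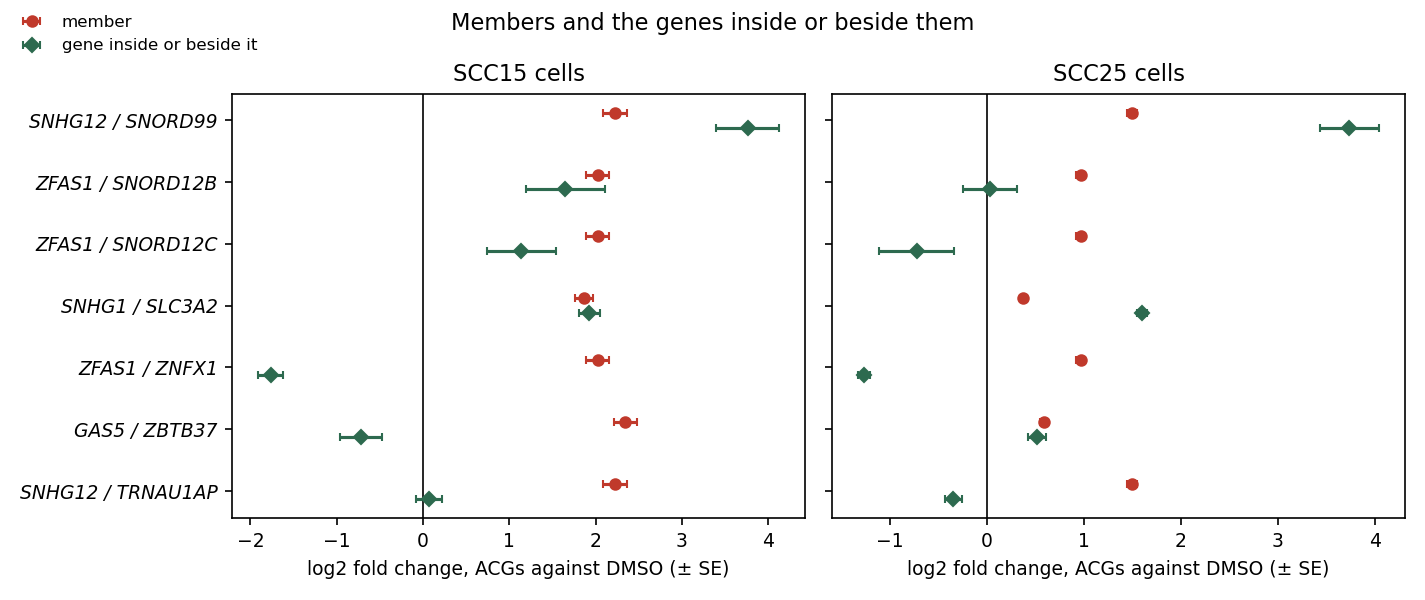
Log2 fold change, squamocin (ACGs) against DMSO (x axis, ± SE from limma, 3 against 3 libraries), of a member (red circles) and of a gene inside or beside it (green diamonds) in SCC15 (left) and SCC25 (right). SNORD99 lies to the right of SNHG12 in both cell lines (3.76 and 3.74), but it passed the filter only through its squamocin libraries and had to differ. ZNFX1 lies below 0 where ZFAS1 lies above it.

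Other noncoding snoRNA hosts, a list of 21 genes of which 16 were listed, did not all move like the members. In SCC15 9 of 16 were higher and 1 was lower (median log2 fold change 1.00), beside 30.9% and 30.0% of all genes. In SCC25 6 of 15 were higher and 4 were lower (median 0.092), beside 38.3% and 38.5% of all genes. Among those called higher, SNHG14, SNHG22 and SNHG25 in SCC15 and SNHG9 and SNHG25 in SCC25 had DMSO means of 4.71 to 8.89. These lay under the filter of 10, so they were tested only because of their squamocin libraries and had to differ. Scaled to equal library totals, 7 of the other hosts rose and 3 fell in SCC15, and 6 rose and 6 fell in SCC25. On that scale 14.8% of all genes were higher and 50.5% lower in SCC15, and 30.4% and 47.4% in SCC25. EPB41L4A-AS1, which hosts SNORA13, rose by 2.33 in SCC15 (SE 0.24, adjusted p = 0.000213, limma) and had a log2 fold change of 0.092 in SCC25 (adjusted p = 0.127, limma). SNHG19 rose by 1.59 and 0.72 (adjusted p = 0.00369 and 1.35e-05, limma). SNHG4 fell in both cell lines, by 1.42 and 1.64 (adjusted p = 0.000218 and 1.76e-09, limma), from 181.5 to 67.4 and from 557.1 to 177.8 normalized counts. The log2 fold change of SNHG11 in SCC15 was −0.18 (adjusted p = 0.292), or −0.67 with equal library totals (adjusted p = 0.00146), and it fell by 0.36 in SCC25 (adjusted p = 0.0176, limma). Over all long noncoding genes tested, by the biotypes of the tables, 443 of 1954 were higher and 625 lower in SCC15 (median −0.20), and 648 of 2176 were higher and 756 lower in SCC25 (median −0.12).

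Of 23 protein-coding snoRNA hosts that are not ribosomal protein genes, 12 were higher and 2 lower in SCC15 (median 0.65), and 11 were higher and 11 lower in SCC25 (median −0.035). Over all genes tested, 30.9% were higher and 30.0% lower in SCC15, and 38.3% and 38.5% in SCC25. TAF1D, a subunit of the RNA polymerase I initiation factor SL1 whose introns hold several snoRNAs, rose by 2.09 (SE 0.083, adjusted p = 7.21e-06, limma) and 1.82 (SE 0.044, adjusted p = 2.71e-12, limma). NOP56, a core protein of box C/D particles and itself a host, fell by 0.79 and 1.24 (adjusted p = 0.000343 and 6.62e-10, limma). NCL, which encodes nucleolin, fell by 0.28 and 0.73 (adjusted p = 0.0363 and 2.64e-09, limma). Scaled to equal library totals, 10 of these 23 genes rose and 10 fell in SCC15, and 7 rose and 14 fell in SCC25. On that scale 14.8% of all genes were higher and 50.5% lower in SCC15, and 30.4% and 47.4% in SCC25.

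Among 5′TOP mRNAs that do not encode ribosomal proteins, 18 of 18 were higher and 0 lower in SCC15 (median 1.17), and 12 of 19 were higher and 5 lower in SCC25 (median 0.25). With equal library totals these counts were 15 and 0, and 7 and 8. Over all genes tested, 30.9% were higher and 30.0% lower in SCC15, and 38.3% and 38.5% in SCC25. With equal library totals these shares were 14.8% and 50.5% in SCC15, and 30.4% and 47.4% in SCC25. TPT1, a 5′TOP mRNA that hosts SNORA31, rose by 1.61 and 0.72 (adjusted p = 0.000409 and 1.07e-09, limma), and FAU, which stands in the list although its product is a ribosomal protein fused to a ubiquitin-like protein, rose by 1.46 and 0.60 (adjusted p = 0.00165 and 3.88e-08, limma). The translation factor genes EIF3L and EEF1D rose in SCC15 by 0.68 and 0.38 (adjusted p = 0.000929 and 0.0279, limma) and fell in SCC25 by 1.35 and 0.92 (adjusted p = 3.17e-09 and 3.37e-09, limma). With equal library totals neither passed the test in SCC15 (0.18 for EIF3L and −0.12 for EEF1D, adjusted p = 0.297 and 0.207, limma).

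Of 22 genes for snoRNP proteins and their assembly factors, 7 were higher and 5 lower in SCC15 (median 0.029), and 7 were higher and 11 lower in SCC25 (median −0.18). On equal library totals the counts were 5 and 13 in SCC15 and 7 and 13 in SCC25, where 50.5% and 47.4% of all genes were lower. NOP10, a core protein of box H/ACA particles, rose by 0.95 and 0.93 (adjusted p = 0.00651 and 3.17e-08, limma), and SNU13, which binds box C/D RNAs, rose by 0.95 and 0.36 (adjusted p = 0.00398 and 4.32e-06, limma). TGS1, the enzyme that hypermethylates snoRNA caps, fell by 1.29 and 0.25 (adjusted p = 0.000351 and 0.00309, limma). Of 21 genes of NMD, 9 were higher and 5 lower in SCC15 (median 0.27), and 12 were higher and 6 lower in SCC25 (median 0.23). After scaling to equal totals, 2 of them rose and 8 fell in SCC15, and 8 rose and 8 fell in SCC25. The subunits of the SMG1 kinase complex moved in opposite directions, with SMG9 higher in both cell lines (1758.1 against 786.4 mean normalized counts in SCC15 and 2311.7 against 538.6 in SCC25, adjusted p = 5.97e-05 and 2.24e-11, limma) and SMG8 lower (log2 fold changes −1.53 and −2.54, adjusted p = 4.76e-05 and 1.01e-09, limma). CASC3, a core protein of the exon junction complex, rose by 0.84 and 1.14 (adjusted p = 0.00137 and 1.00e-10, limma), and did not pass in SCC15 with equal library totals (0.34, adjusted p = 0.148, limma). SMG6, the endonuclease of the pathway, fell by 1.26 and 1.22 (adjusted p = 0.0356 and 5.3e-08, limma).

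**Figure D5:**
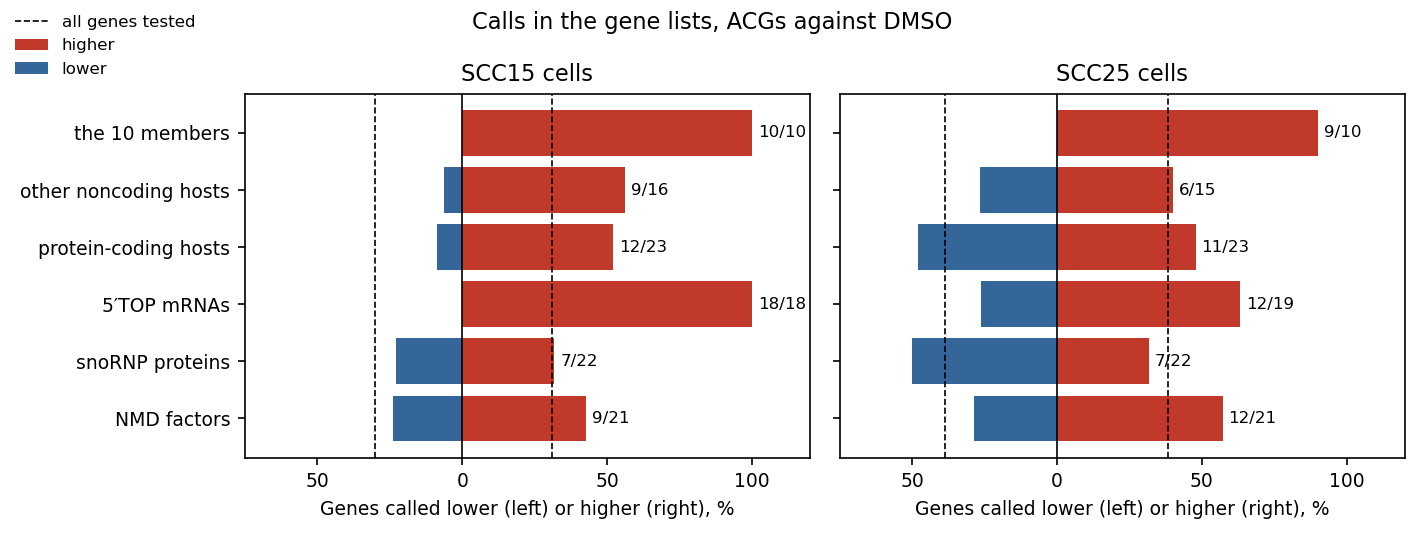
Share of the tested genes of each list that was called higher (red, to the right) or lower (blue, to the left) with squamocin (x axis, %), in SCC15 (left) and SCC25 (right), with the number higher of the number tested beside each bar and dashed lines at the shares over all genes tested. In SCC15 the members and the 5′TOP mRNAs reach 10 of 10 and 18 of 18, and in SCC25 the members reach 9 of 10 and the 5′TOP mRNAs 12 of 19.

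The genes whose pattern was most like the mean of the members were sought among 10094 genes, by the correlation of log2 values over the 12 libraries after centring within each cell line. The points share their libraries and their scaling, and the values are given as a description. The 5 highest were RPL12, a ribosomal protein gene (r = 0.9988), ATF4, the transcription factor of the integrated stress response (0.9985), TMBIM1 (0.9981), PHGDH, the first enzyme of serine synthesis (0.9977), and MFSD10 (0.9969). Since they were chosen for this likeness, a larger rise in SCC15 than in SCC25, as in the members, follows from the choice. The log2 fold changes were 1.87 and 0.74 for RPL12, 2.25 and 0.91 for ATF4, and 1.85 and 0.72 for PHGDH.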

How the data were processed

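RNA-seq of SCC15 and SCC25 cells (3 squamocin and 3 DMSO libraries each) was analysed from the 2 deposited gene tables. Per the study's methods and the submitters' processing notes, the authors aligned reads to GRCh38 with HISAT2 2.0.5 and counted them per gene with featureCounts 1.5.0-p3. The deposited signal is the count divided by a size factor per library, set within each table, also in the SCC25 columns named FPKM. The values of a library times its size factor came out whole (within 0.1) for 100% of genes, which gave the reads used for depth. In each table, 5 columns of the authors' own comparison (group means, fold changes, p-values) were not used.

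Values plus a pseudocount of 1 were tested on the log2 scale by the moderated test of limma 3.58.1 (R 4.3.3, eBayes with trend, two-sided), for genes with a mean of at least 10, adjusted by Benjamini-Hochberg over all genes tested. Members and lists were chosen with earlier results of these data known. The text names all members; from each other list the 2 largest rises and 2 largest falls by the mean of both cell lines, with a mean of at least 100 in each; snoRNA genes and overlapping genes, or genes with a start within 1 kb on the other strand, with a mean of at least 10 in either; and the 5 genes most alike. KRT5, TP63, EPCAM, DSG3, KRT17, PTPRC, PECAM1, CDH5 and KDR were named after their values were seen. Alternatives were TMM factors, equal library totals, a pseudocount of 0.1 or 10, a filter of any value above 0 or of 10 in every library, edgeR 4.0.16 or DESeq2 1.42.0 run on whole reads, a replicate block, leaving out single libraries, and an absolute log2 fold change above 1. The fits were tested on simulated data with known changes. Start sequences came from RefSeq (GRCh38.p14), and exons from GENCODE release 44. Some sequences are not shown, and results for some single genes are left out.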

Additional observations from a re-analysis of the deposited data

Results flagged for a closer look

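For 9 members the response to squamocin differed between the cell lines by the limma contrast over 12 libraries. The difference in log2 fold change, SCC25 minus SCC15, was −2.38 for SNHG15, −1.76 for GAS5, −1.49 for SNHG1, −1.20 for SNHG16, −1.06 for ZFAS1, −1.05 for SNHG7, −0.96 for SNHG5, −0.73 for SNHG12 and −0.69 for SNHG8. All 9 were smaller in SCC25, beside 26.1% of all genes tested in both. Their SEs ranged from 0.11 (SNHG16) to 0.29 (SNHG5). Without squamocin library 3 of SCC15 the difference was −0.61 for SNHG5 and −0.43 for SNHG8.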

How the results depend on the processing

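All 10 members stayed higher in SCC15 under all 16 alternatives run, and 9 stayed higher in SCC25 under all but 1. Only 3 were higher there when an absolute log2 fold change above 1 was also required. Equal library totals moved the median of the members to 1.42 in SCC15 and 0.68 in SCC25 and made 1 member, SNHG16, lower in SCC25 (−0.23). Leaving out single libraries gave medians from 1.74 to 2.05 in SCC15 and from 0.86 to 0.92 in SCC25. The number of members with a smaller response in SCC25 ranged from 6 to 9. The SNHG6 difference turned to 0.21 with equal library totals and to 0.15 without squamocin library 3 of SCC15 (−0.23 to 0.15 over the libraries left out), and was not called under any alternative (adjusted p 0.0697 to 0.852, limma). The SNHG8 difference lost its call with equal library totals (−0.40) and without any of 7 single libraries, DMSO libraries 2 and 3 of SCC15, squamocin libraries 1 and 3 of SCC25 and the 3 DMSO libraries of SCC25 (−0.62 to −0.71), and it was −0.43 and kept its call without squamocin library 3 of SCC15. The cause of these changes was not tested. Pairing of the libraries by replicate number was not seen (same-number correlations of −0.051 to 0.0078), but such values cannot show that the libraries were unpaired. With the replicate block 10 members were higher in SCC15, 9 were higher in SCC25 and 9 had a smaller response in SCC25, with no call changed. The difference was fitted with neither edgeR nor DESeq2.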

Other observations

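Over all snoRNA genes of the tables, 44 of the 246 listed in SCC15 reached the filter on low values. Of these, 38 were higher and 0 lower (median log2 fold change 2.47), where 30.9% of all genes tested were higher. In SCC25 37 of 183 reached it, and 24 were higher and 2 lower (median 1.37), where 38.3% of all genes tested were higher. A gene that is near 0 with DMSO can pass the filter through its squamocin libraries, so these counts describe the genes that passed and not all snoRNA genes.

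Of the other noncoding hosts, DANCR did not pass the test in SCC15 (0.099 on the log2 scale, adjusted p = 0.631, limma) and was higher in SCC25 (0.92, adjusted p = 2.49e-07, limma). SNHG3 rose by 1.69 in SCC15 (adjusted p = 6.56e-05, limma) and had a log2 fold change of −0.084 in SCC25 (adjusted p = 0.204, limma). These 2 genes were chosen after their values were seen, and the difference between the cell lines was not tested for them.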
